A study of Mus musculus with 6 samples.

Results

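The genes described here fold, translocate, modify and discard proteins in the endoplasmic reticulum (ER), or sense misfolded protein there. They were followed through 10 T1/2 cells, a mouse embryonic fibroblast line. The list holds 40 genes, and its members were taken as all probe sets that the array annotation assigns to exactly 1 gene of the list. Of the 40 genes, 38 had such a probe set, out of 18194 genes measured in all. They had 89 probe sets on the MOE430A design, for 38 genes, and 15 on the MOE430B design, for 12 genes. The whole designs hold 22690 and 22575 probe sets. Fkbp10 and Sec61g had no probe set of their own and were not analysed here.

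There was 1 group and no treatment or control. The 3 samples, numbered 1, 4 and 5, were cells grown in DMEM with 10% foetal bovine serum and harvested at 80% confluency, and the labels do not say whether they came from separate cultures. Total RNA of each sample (5 µL at 100 ng/µL) was the material for 1 MOE430A and 1 MOE430B Affymetrix array. The stated purpose was to find genes active in both this fibroblast line and stem cells, for subtraction from other stem cell data. Values are MAS5 signals on a linear scale, scaled on each array alone, so levels are compared between samples for 1 probe set and never between probe sets or designs. With 3 samples of 1 group no test between samples was possible, and differences are described by size.

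Secreted and membrane proteins enter the ER as they are made, through a channel built from Sec61 proteins, where signal peptidase removes their signal peptide. Inside, Hsp70 and Hsp90 type chaperones, lectin chaperones and protein disulfide isomerases fold them, and proteins that fail are moved back to the cytosol and degraded. When unfolded protein builds up, the sensors Ern1 (IRE1alpha), Atf6 and Eif2ak3 (PERK) start the unfolded protein response, which raises transcription of chaperone genes. Fibroblasts make much collagen and fibronectin, which pass through this pathway.

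Part of that transcription runs through the ER stress response element (ERSE), the binding site of Atf6 and Xbp1 together with NF-Y. The promoters of the members were therefore searched for it, in RefSeq sequence of the build GRCm38.p6 from 250 bases before to 50 bases after each gene's start. ERSE was searched on both strands as CCAAT, 9 bases of any kind and CCACG. A promoter entry was matched for 32 of the 40 listed genes, all but Hyou1, Manf, Atf6, Derl1, Sec61a1, Ssr2, Spcs3 and Fkbp10. ERSE stood in 8 of the 32 (25.0%), against 37 of all 27025 genes with an entry (0.137%). The 9 matches, 2 of them in Hsp90b1, are shown as a sequence feature of these 8 genes. The list was written from genes known to take part in the response, so the share of 25.0% is not independent of that choice. Each is written in the direction of the motif, with CCAAT and CCACG in capitals.
Hspa5, chr2:34772025-34772043, plus strand: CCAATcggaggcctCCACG
Hsp90b1, chr10:86705533-86705551, plus strand: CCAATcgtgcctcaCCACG
Hsp90b1, chr10:86705638-86705656, minus strand: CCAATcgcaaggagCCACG
Pdia6, chr12:17266491-17266509, plus strand: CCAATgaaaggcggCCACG
Calr, chr8:84847075-84847093, plus strand: CCAATgagggtcgaCCACG
Canx, chr11:50325800-50325818, minus strand: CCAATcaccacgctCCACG
Dnajc3, chr14:118937827-118937845, plus strand: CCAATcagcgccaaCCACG
Creld2, chr15:88819520-88819538, minus strand: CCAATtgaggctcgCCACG
Syvn1, chr19:6046532-6046550, plus strand: CCAATcggcggtagCCACG
The 9 bases between the boxes differed between all of these sites. The match in Hspa5 lay 65 to 47 bases before the start, and the promoter is given whole because Hspa5, which encodes BiP, is the gene by which the response is usually read.
Hspa5 promoter, chr2:34771840-34772139, plus strand, ERSE in capitals: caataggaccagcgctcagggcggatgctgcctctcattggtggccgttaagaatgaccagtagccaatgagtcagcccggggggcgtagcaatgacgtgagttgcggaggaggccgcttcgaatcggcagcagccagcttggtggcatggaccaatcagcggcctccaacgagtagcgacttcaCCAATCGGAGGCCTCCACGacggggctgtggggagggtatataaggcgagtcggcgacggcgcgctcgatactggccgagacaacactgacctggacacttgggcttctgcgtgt
A shorter form, ERSE-II, was searched as ATTGG, 1 base of any kind and CCACG. It stood in 2 member promoters, against 12 of all 27025 genes (0.0444%).
Dnajb11, chr16:22857852-22857862, plus strand: ATTGGcCCACG
Herpud1, chr8:94386377-94386387, plus strand: ATTGGgCCACG
The element UPRE, searched as TGACGTGG, stood in 0 of the 32 member promoters and in 193 genes of all (0.714%). No member promoter held more than 1 of the 3 kinds of motif. A match is a string of letters and was not tested as a binding site, and a missing match says only that these letters are not in this window.

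The background limit of an array was the 95th percentile of its signals for genes of unrelated specialised tissues, and a gene was called detected when 1 of its probe sets was above the limit on 3 of 3 arrays. By this rule 31 of the 38 measured genes were detected, where the background over all genes was 26.0%. On MOE430A, 42 of the 89 probe sets were detected (47.2%), against a background of 22.1%. On MOE430B, 7 of the 15 were (46.7%), against 11.9%. All 4 subunits of the translocon-associated protein (TRAP) complex and the 3 subunits of signal peptidase among the members were detected. So were 7 of the 8 chaperones and related proteins, 2 of 3 HSP40 co-chaperones, 5 of 6 disulfide and proline folding enzymes, 4 of 6 degradation genes, 3 of 4 translocon genes and 3 of 4 genes of the sensor group. Not detected were Pdia4, Dnajc3, Sdf2l1, Atf6, Syvn1, Edem1 and Sec63. When more than 50% of a gene's probe sets had to be detected, 17 of the 38 genes remained, since many genes also have probe sets near background. The share of all genes under this stricter rule is not given here, and the 26.0% is not its background.

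**Figure D1:**
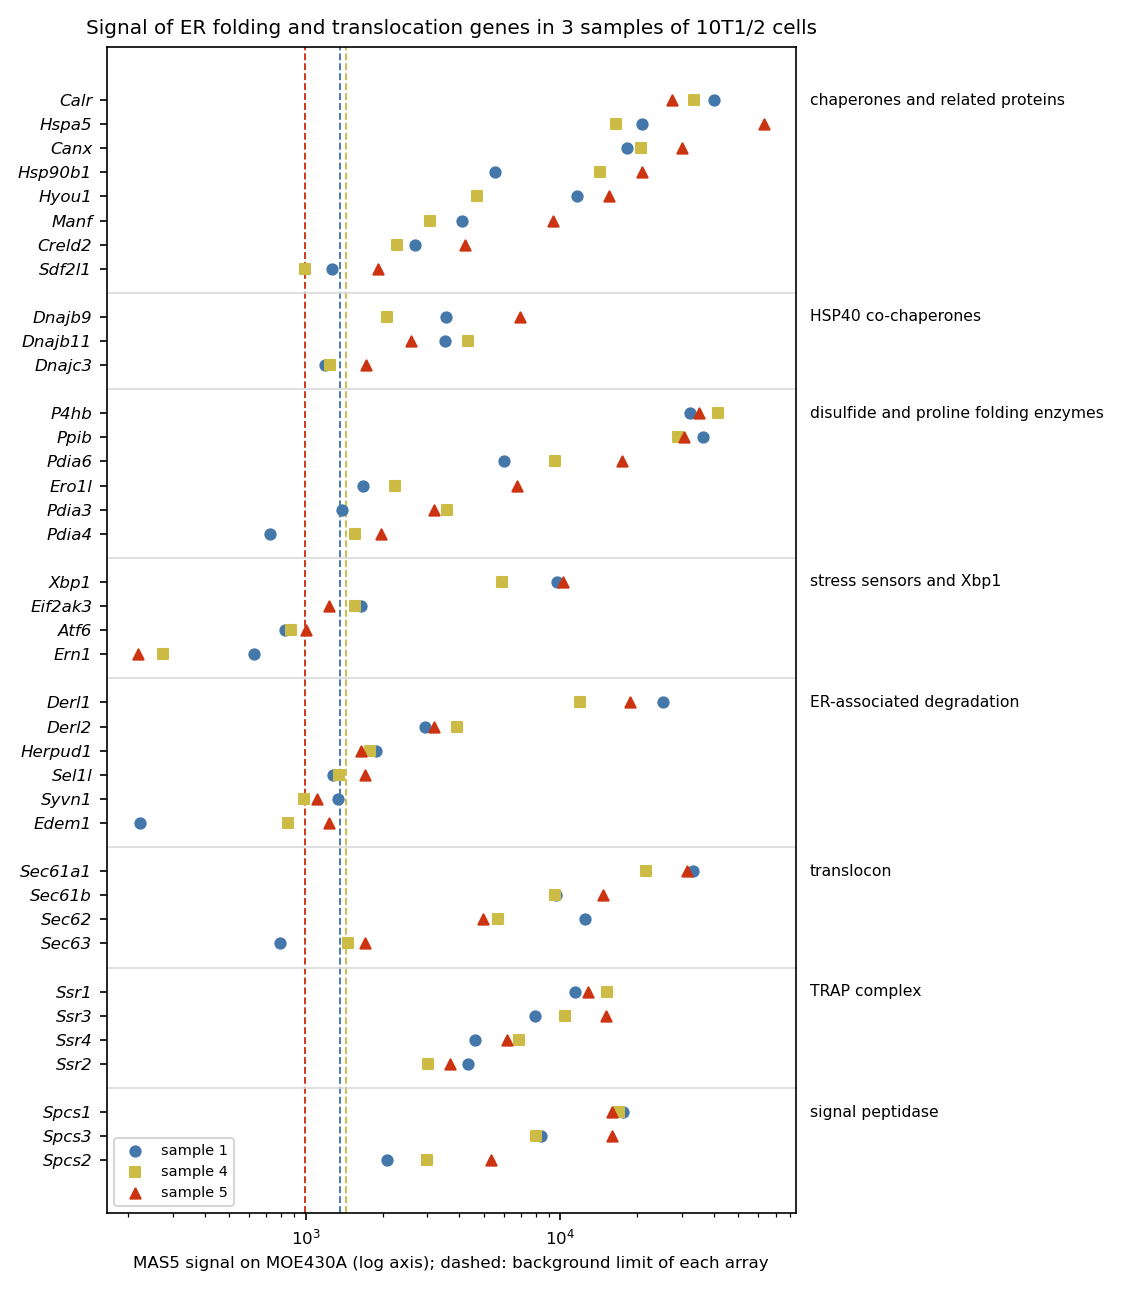
MAS5 signal (log axis) of the 38 measured genes on MOE430A in samples 1, 4 and 5, 1 probe set a gene, grouped by role, with the background limit of each array as a dashed line (1358, 1441 and 994 in samples 1, 4 and 5). Most genes lie above all 3 limits, and the sample 5 point of Hspa5, at 63328, stands apart from its points of samples 1 and 4, at 20932 and 16515.

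The label of the cells was checked against marker genes. Of 10 fibroblast markers, 9 were detected, against 0 of 8 endothelial and 0 of 7 leukocyte markers. Of 8 epithelial markers, Epcam alone was detected, by a MOE430B probe set. That probe set gave 29693 in sample 5, against 31382 and 139544 in samples 1 and 4, while the MOE430A signal of Epcam was at most 47.4. Of 8 measured markers of plasma cells and exocrine secretory cells, which carry a large ER, Sdc1 and Mzb1 were detected.

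The samples differed in measures outside the member genes. On MOE430A, with 1 probe set a gene, the fibroblast markers summed to 180872 in sample 5, against 375652 and 404064 in samples 1 and 4. Bright probe sets such as that of Col1a2 weigh most in such a sum. Gene by gene, 7 of the 10 fibroblast markers were 1.5-fold or more lower in sample 5 and 0 higher, with a median of -1.70. Smaller differences upwards were seen for 2 of them. The endothelial markers summed to 2080, against 4132 and 3118, and the leukocyte markers to 3273, against 2977 and 2726. The epithelial markers summed to 2528, against 2699 and 2010, without the MOE430B probe set of Epcam. The plasma cell and exocrine markers summed to 4363, against 7243 and 6595. No marker was at 0. Of 13 cell cycle genes, 8 were 1.5-fold or more higher and 0 lower in sample 5, with a median of 0.63 on the log2 scale. In sample 4, 10 were higher and 0 lower (median 1.34), and in sample 1 all 13 were lower (median -2.05). The ratio of 3′ to 5′ probe sets of Gapdh on MOE430A was 10.6 in sample 5, against 24.7 and 15.0 in samples 1 and 4, and that of beta-actin was 8.68, against 17.5 and 9.57. On MOE430B, Gapdh gave 11.5 in sample 5, against 23.4 and 13.99, and beta-actin 10.8, against 20.2 and 8.23. Sample 1 had the highest ratio in all 4 cases. The MOE430A array of sample 5 was run on fluidics station 2 and those of samples 1 and 4 on station 1, while all 3 MOE430B arrays were run on station 1. The part of the cell cycle, of the 3′ to 5′ ratio and of the fibroblast markers in the differences of the ER genes was not tested. In such bulk RNA, fewer cells of a kind and less RNA per cell cannot be told apart.

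The ER genes differed most in sample 5. Each sample was set against the mean log2 signal of the other samples, over the 34 member genes whose mean signal on MOE430A passed the mean limit. In sample 5, 16 of the 34 genes (47.1%) were 1.5-fold or more higher than the mean of samples 1 and 4. The background was 17.8% of 4389 genes. Another 2 genes were 1.5-fold or more lower (background 19.3%). Some of the 16 were less than 1.5-fold above the nearer of the other samples, as was Hyou1, at 15517 against 11587 in sample 1. The median difference was 0.51 on the log2 scale, or 1.42-fold, where that of all 4389 genes was -0.04. In sample 1, 2 genes were higher (background 16.4%) and 9 lower (background 16.9%), with a median of -0.26. In sample 4, 1 gene was higher (background 11.5%) and 7 were lower (background 9.41%), with a median of -0.16. Each sample serves in the comparison of the others, so these counts are not independent of one another. With 1 of the samples left out, the comparison is between single samples. Against sample 1, without sample 4, sample 5 had 16 genes higher (background 21.8%) and 1 lower (background 23.2%), with a median of 0.48. Against sample 4, without sample 1, sample 5 had 13 higher (background 16.2%) and 1 lower (background 19.0%), with a median of 0.50. Against sample 4, without sample 5, sample 1 had 6 higher (background 14.6%) and 5 lower (background 15.4%). The median between samples 1 and 4 was then 0.03, so the sign of the sample 1 median of -0.26 turned when sample 5 was left out. The highest signal of the 3 was in sample 5 for 19 of the 34 genes, against 34.5% of all genes. The filter takes the mean of the 3 arrays, so a gene can pass it through a high signal in 1 sample. Sdf2l1, Pdia4 and Sec63 were among the 16 without being above the limit on all 3 arrays. A stricter filter kept only probe sets above the limit on 3 of 3 arrays, which left 29 genes. Of these, 13 were 1.5-fold or more higher in sample 5 (background 14.4%) and 2 lower (background 20.1%), with a median of 0.43.

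**Figure D2:**
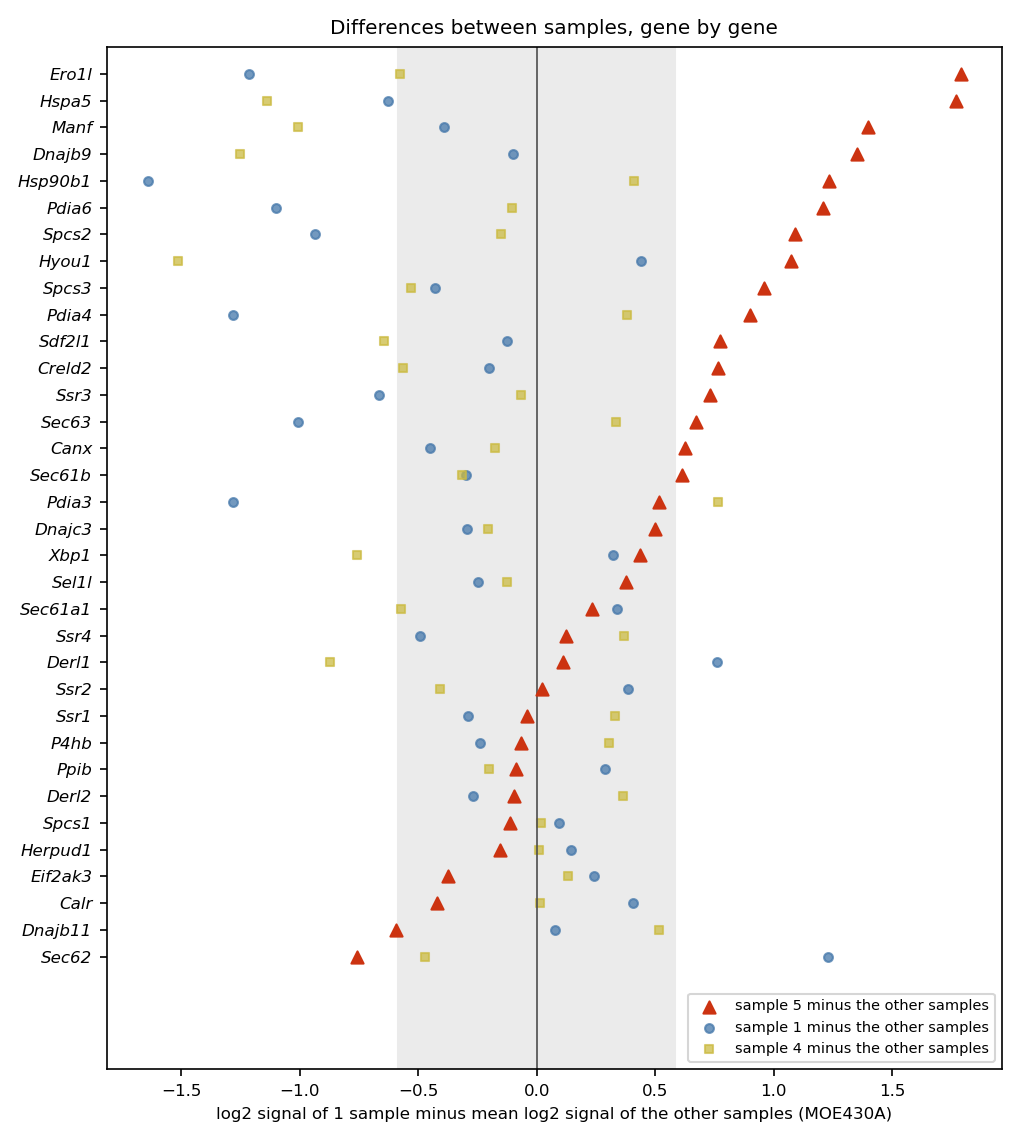
Difference in log2 signal on MOE430A between 1 sample and the mean of the other samples, for the 34 genes above the filter, ordered by the difference in sample 5. Red triangles are sample 5, blue circles sample 1 and yellow squares sample 4, and the grey band spans 1.5-fold in each direction. The triangles of 16 genes lie right of the band, from Ero1l at 1.79 to Sec61b at 0.61, and those of Sec62 and Dnajb11 lie left of it.

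Among the chaperones, Hspa5 (BiP), the Hsp70 of the ER lumen that also holds the stress sensors inactive, had a signal of 63328 in sample 5, against 20932 and 16515 in samples 1 and 4. Its second MOE430A probe set, of a type that can also match other sequences (_s_at), gave 9436 in sample 5, against 1740 and 1726. Both probe sets put sample 5 far above the other samples, by 3.41-fold and by 2.45 on the log2 scale. Another probe set of Hspa5, on MOE430B and likewise of a type that can match other sequences (_x_at), did not show this difference. It gave 36729 in sample 5, against 43364 and 31925 in samples 1 and 4, a log2 difference of -0.02.

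Hsp90b1 (GRP94), the Hsp90 of the lumen, had 20906 in sample 5, against 5534 and 14291 in samples 1 and 4, and its other probe set gave 9952, against 5274 and 6716. Sample 5 was highest with both, by 2.35-fold and by 0.74 on the log2 scale, and sample 1 was lowest with both. Hyou1 (GRP170), a nucleotide exchange factor of Hspa5, had 15517 in sample 5, against 11587 and 4690, so that here sample 4 stood apart as low. Canx, the membrane-bound lectin chaperone of new glycoproteins, had 30068 in sample 5, against 18269 and 20732, or 1.54-fold. Its other MOE430A probe sets gave log2 differences of 0.17 and 1.00, the latter from a probe set above the limit in sample 5 alone. The 1.54-fold value is from an _s_at probe set, and without probe sets of this kind Canx was at 0.17. The size of the Canx difference thus depends on the probe set, while its direction was the same for all 3.

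Manf, a secreted ER stress protein that binds Hspa5, had 9342 in sample 5, against 4092 and 3077, or 2.63-fold. Creld2, another ER protein known as a target of the response, had 4200 in sample 5, against 2690 and 2275. Sdf2l1, a partner of Hspa5 and Dnajb11, had 1918 in sample 5, against 1265 and 996, and only the sample 5 value was above its array's limit. Sample 5 was the highest of the 3 for each of these genes. Calr, the soluble lectin chaperone, was the exception in this group. It had 27449 in sample 5, against 40247 and 33520 in samples 1 and 4, and its 3 probe sets gave differences between -0.44 and -0.37. In all, 7 of the 8 genes of this group were 1.5-fold or more higher in sample 5, with a median of 0.92 on the log2 scale.

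The HSP40 co-chaperones, which hand substrates to Hspa5 and start its ATPase, did not move together. Dnajb9 (ERdj4) had 6963 in sample 5, against 3559 and 2090 in samples 1 and 4, or 2.55-fold. Dnajb11 (ERdj3) had 2585 in sample 5, against 3530 and 4321, a log2 difference of -0.60. Dnajc3 (p58IPK) had 1722, against 1193 and 1244, and was above its limit in sample 5 alone.

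Among the folding enzymes, the largest difference was that of Ero1l (current symbol Ero1a), the oxidase that passes electrons from the disulfide isomerases to oxygen. It had 6723 in sample 5, against 1677 and 2248 in samples 1 and 4, or 3.46-fold. Its other probe sets gave 4145 against 788 and 1174, and 1186 against 255 and 624, and were above the limit in sample 5 alone. All 3 probe sets of Ero1l put sample 5 highest and sample 1 lowest. Ero1l was matched to its probe sets through this current symbol after the values of the other members had been seen. Without it, 15 of 33 genes were higher in sample 5, and 30 genes were detected.

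The protein disulfide isomerases form and rearrange disulfide bonds. Pdia6 had 17506 in sample 5, against 6017 and 9533, or 2.31-fold. Pdia4 had 1980, against 722 and 1558. Pdia3, which works with Calr and Canx on glycoproteins, had 3195 in sample 5, against 1391 and 3580. For these 3 genes, sample 1 was the lowest, and 1.5-fold or more below the other samples. P4hb, the isomerase that is also the beta subunit of collagen prolyl 4-hydroxylase, had 34962, against 32314 and 41583. Ppib (cyclophilin B), a prolyl isomerase that serves collagen, had 30461, against 36207 and 28892. The highest and lowest of the 3 samples differed by 1.29-fold for P4hb and by 1.25-fold for Ppib. Of the 6 enzymes, 3 were 1.5-fold or more higher in sample 5, and 4 were 1.5-fold or more lower in sample 1.

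The genes of the 3 sensors were near or below the limit on MOE430A. Eif2ak3 had 1231 in sample 5, against 1639 and 1557 in samples 1 and 4, a log2 difference of -0.38. Atf6 had 1001 in sample 5, against 827 and 871, at 1.01 times the limit in sample 5 and below it in samples 1 and 4. Ern1 was below the limit with its 3 MOE430A probe sets and detected with 1 probe set of MOE430B, at 13414 in sample 5, against 10342 and 3877, so that sample 4 stood apart as low. Xbp1, the transcription factor whose mRNA Ern1 splices, had 10228 in sample 5, against 9714 and 5894. Its second detected probe set gave 3782, against 1598 and 1853. Sample 5 was highest with both, by 1.35-fold and by 1.14 on the log2 scale. None of these values tells spliced from unspliced Xbp1.

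Of the genes for ER-associated degradation, 4 passed the filter on MOE430A, Sel1l, Herpud1, Derl1 and Derl2, and none of these 4 was 1.5-fold or more higher or lower in sample 5. Sel1l, the scaffold of the Hrd1 ligase complex, had 1702 in sample 5, against 1276 and 1351, and 26708, against 15652 and 23732, with a probe set of MOE430B. Herpud1, which links that complex to the Derlins and is known as an early target of the response, had 1650 in sample 5, against 1893 and 1780. Its other probe set, below the filter and above the limit in sample 5 alone, gave 1458 in sample 5, against 178 and 648, so the probe sets of Herpud1 disagree. Derl2 had 3186, against 2939 and 3936. The brightest probe set of Derl1, which may match other sequences (_s_at), had 18803 in sample 5, against 25395 and 11924, while the other one gave 3996, against 2116 and 3023. The 2 probe sets of Derl1 disagree on samples 1 and 4 and give no single order. Syvn1, the Hrd1 ligase itself, was above the limit in sample 5 alone on MOE430A, at 1106, against 1342 and 985, and gave 6299, against 5246 and 2475, on MOE430B. The higher of the probe sets of Edem1, which draws misfolded glycoproteins to degradation, gave 1227, against 222 and 853, and did not pass the filter.

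In the translocon, Sec61a1, the pore subunit, had 31538 in sample 5, against 33112 and 21746 in samples 1 and 4, and its 3 detected probe sets gave differences between -0.19 and 0.37. Sec61b had 14658, against 9619 and 9540, or 1.53-fold. Sec62 and Sec63, which help precursors into the channel after their synthesis, went opposite ways. Sec62 had 4984 in sample 5, against 12477 and 5687, and a second probe set gave 1450, against 5537 and 1143. Both probe sets of Sec62 put sample 1 highest, by 2.34-fold and by 2.10 on the log2 scale. Sec63 had 1713 in sample 5, against 788 and 1467, with sample 1 lowest.

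The TRAP complex sits beside the channel and aids the entry of some precursors. Ssr3 had 15135 in sample 5, against 7934 and 10460, or 1.66-fold, and the same probe set on MOE430B gave 59160, against 22493 and 40976. Ssr1 had 12785, against 11382 and 15185. Ssr2 had 3668, against 4343 and 3007, and Ssr4 had 6149, against 4625 and 6892. Ssr3 alone of the 4 subunits was past 1.5-fold in sample 5. In signal peptidase, Spcs3 had 15998 in sample 5, against 8423 and 8031, or 1.94-fold. Spcs2 had 5322, against 2087 and 3001, and 5117, against 3767 and 1484, with its second probe set, so sample 5 was highest with both. Spcs1 had 15981, against 17596 and 16985, the smallest spread of the 34 genes, with a coefficient of variation of 4.84% (n = 3). The median over the 34 genes was 30.1%, and the largest was that of Ero1l, at 77.9%.

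The 19 genes with their highest signal in sample 5 differed in which sample was lowest, which was looked at after the values were seen. In 10 it was sample 1 (29.4% of the 34 genes, where the same order held for 21.1% of all genes), among them Hsp90b1, Pdia4, Pdia6, Ero1l, Sec63 and Spcs2. In 9 it was sample 4 (26.5%, against 13.5% of all genes), and these were Hspa5, Dnajb9, Hyou1, Sdf2l1, Creld2, Manf, Xbp1, Sec61b and Spcs3. The lowest sample changed with the probe set for Spcs2, Xbp1 and Canx. For Sec61b, at 9619 and 9540, and for the second probe set of Hspa5, at 1740 and 1726, samples 1 and 4 were nearly equal.

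Of the 8 genes with an ERSE match, 7 passed the filter, and 5 of these were 1.5-fold or more higher in sample 5, Hspa5, Hsp90b1, Pdia6, Canx and Creld2, with a median of 0.76 over the 7. Of the 21 with a promoter entry, no ERSE match and a signal past the filter, 8 were higher and 2 lower, with a median of 0.37. Over all 3631 genes with a promoter entry past the filter, 644 were higher and 705 lower, with a median of -0.03. Calr has a match and was lower in sample 5 in all 3 probe sets, and Dnajb9 and Ero1l have none in this window and were higher. Of the genes with ERSE-II, Dnajb11 was lower in sample 5 than the mean of the others, and Herpud1 was at -0.15 with its probe set above the filter and at 2.10 with the one below it. Of 29 genes with an ERSE match outside the list, 1 passed the filter, at -0.56 in sample 5. The comparison by motif was made after the values were seen and is a description of these genes.

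**Figure D3:**
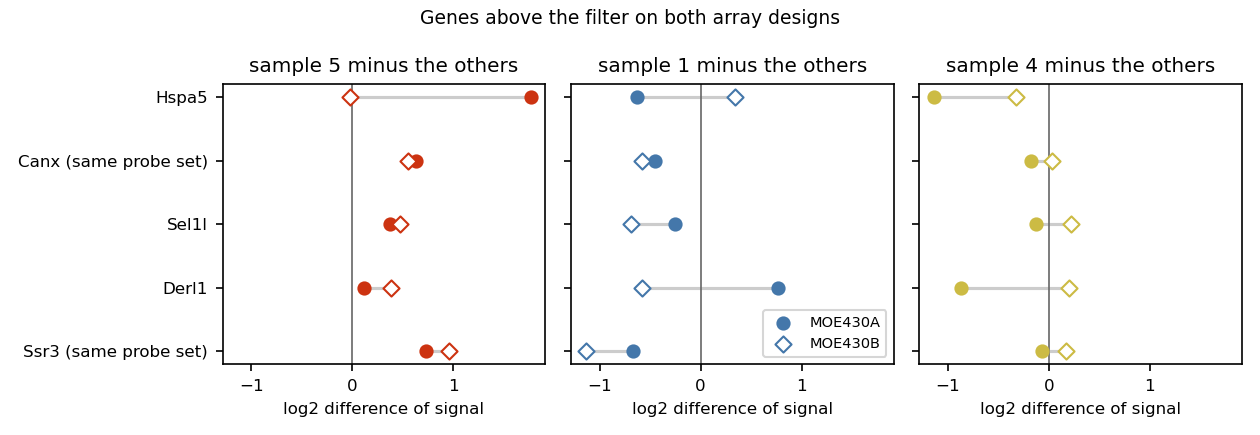
Differences in log2 signal between 1 sample and the mean of the others on MOE430A (filled circles) and MOE430B (open diamonds), for the 5 genes above the filter on both designs. In sample 5 both designs lie right of 0 for Canx, Sel1l, Derl1 and Ssr3, and Hspa5 is at 1.77 on MOE430A and -0.02 on MOE430B.

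The second design gives another hybridisation of the same RNA. On MOE430B, 7 member genes passed the filter, and 6 of them were higher in sample 5 than the mean of samples 1 and 4, with a median of 0.55 on the log2 scale. By 1.5-fold or more, 3 of the 7 were higher (background 18.8%) and 0 lower (background 14.3%). Syvn1, among the 7, was above the limit on 2 of the 3 MOE430B arrays. These 3 arrays shared 1 fluidics station. Over all genes of that design, 1171 of 2168 were higher in sample 5, with a median of 0.05. Of the 5 genes above the filter on both designs, the sign was the same on both for 4 in sample 5, for 3 in sample 1 and for 1 in sample 4. Within MOE430A, 13 member genes had more than 1 probe set above the filter. All probe sets of a gene had the same sign for 11 of the 13 genes in sample 5, for 10 in sample 1 and for 8 in sample 4.

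Other genes of the pathway were described from lists written for this work. Of the list of the PERK (Eif2ak3) and eIF2alpha branch, 7 of 11 measured genes passed the filter, of which 5 were 1.5-fold or more higher and 0 lower in sample 5, with a median of 1.64 on the log2 scale. Atf4, the transcription factor translated when eIF2alpha is phosphorylated, had 17914 in sample 5, against 3810 and 6257 in samples 1 and 4. Ddit3 (CHOP), a transcription factor tied to cell death under ER stress, had 4659, against 1587 and 1472, and Chac1, a target of Atf4 that degrades glutathione, had 6530, against 1295 and 1883. All 7 genes of this branch past the filter were higher in sample 5 than the mean of the others. The filter takes the mean of the 3 arrays, so a high signal in sample 5 helps a gene to pass it. Of the 11 measured genes, 5 were detected on 3 of 3 arrays, Atf4 and Ddit3 among them but not Chac1. In sample 1, Chac1 was below the limit of 1358. Atf4 and its targets also answer stresses outside the ER, and the list does not separate these.

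**Figure D4:**
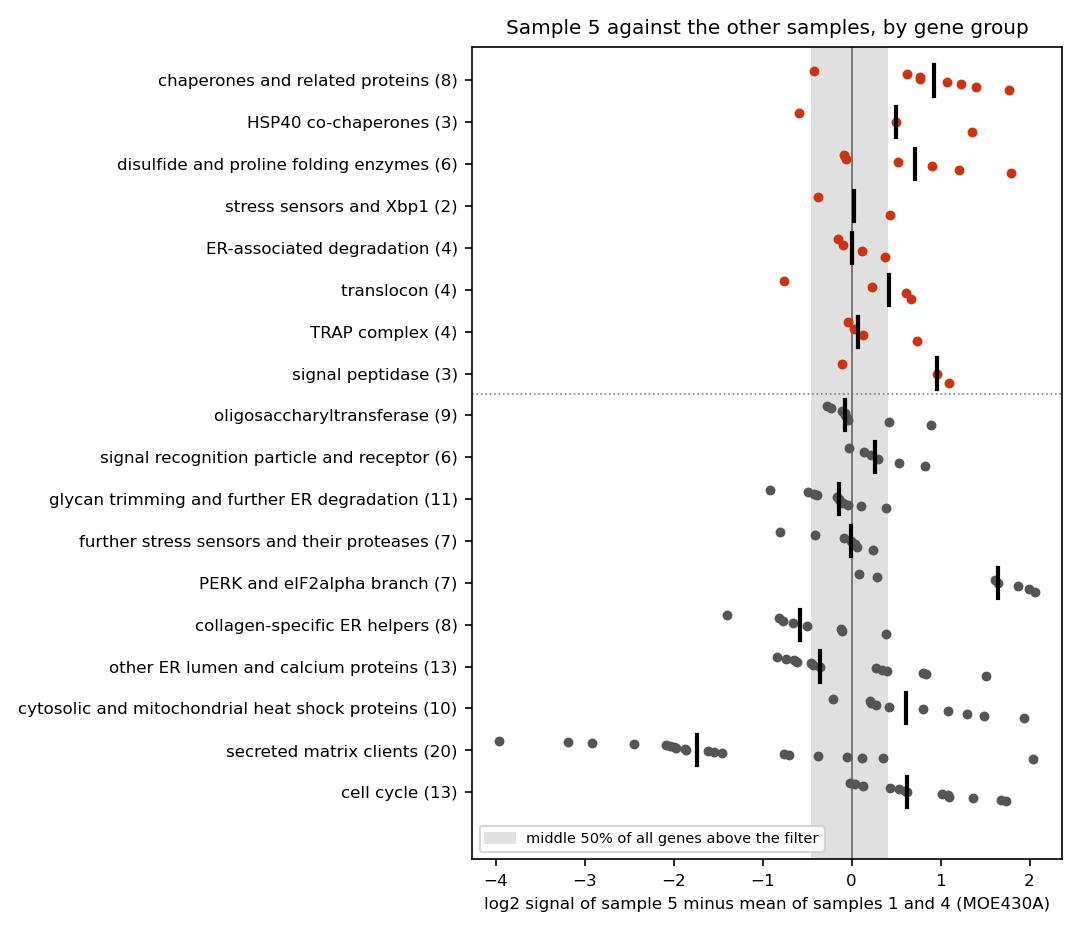
Difference in log2 signal on MOE430A between sample 5 and the mean of samples 1 and 4, by role of the member genes (red, above the dotted line) and by other gene lists (grey). Each point is a gene, black bars are medians, the number of genes is in brackets and the grey band holds the middle 50% of all genes. The medians run from 1.64 for the PERK branch to -1.74 for the secreted matrix genes.

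The machinery around the members was not higher as a whole. Of the 9 oligosaccharyltransferase subunits, which add N-glycans, 1 (Magt1) was past 1.5-fold in sample 5 and the median was -0.07. Rpn1 had 14903 in sample 5, against 21406 and 15236, and Rpn2 had 2384, against 1737 and 3625. Of 6 genes of the signal recognition particle and its receptor, 1 (Srprb) was past 1.5-fold, with a median of 0.26, and Srp9 had 4631, against 4318 and 4072. Of 11 genes of glycan trimming and further ER degradation, 0 were past 1.5-fold higher and 1 (Os9) lower, with a median of -0.14. Of 7 further sensors and their proteases, 0 were higher and 1 (Creb3) lower. Among 13 other proteins of the lumen and of calcium handling, 3 were higher and 4 lower. Atp2a2 (SERCA2), the pump that fills the ER with calcium, had 23741 in sample 5, against 9065 and 7674, and Txndc5, a disulfide isomerase, had 8099, against 11229 and 18625.

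The difference was not limited to ER genes, and most of the listed genes of secreted matrix proteins went the other way. Of 10 cytosolic and mitochondrial heat shock genes, 5 were 1.5-fold or more higher in sample 5 and 0 lower, with a median of 0.61. Hspa8, the constitutive Hsp70 of the cytosol, had 103840 in sample 5, against 95911 and 83631, and Hspd1, the mitochondrial Hsp60, had 26900, against 5765 and 8498. Of 20 secreted matrix genes, 15 were 1.5-fold or more lower in sample 5 and 1 (Ctgf) higher, with a median of -1.74. Some of these genes, Col1a1 and Col1a2 among them, are also fibroblast markers, so the lower signals of the lists are not separate observations. Col1a2 had 43699 in sample 5, against 183221 and 161044, and Col6a2 had 3714, against 89284 and 37714. Of 8 ER genes that serve collagen in particular, 4 were lower and 0 higher. Serpinh1 (HSP47), the collagen chaperone, had 5693 in sample 5, against 18055 and 12534, while P4ha1, the catalytic subunit that pairs with P4hb, had 2161, against 1561 and 1742. The part of the lower matrix signals in the higher chaperone signals was not tested.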

How the data were processed

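The authors deposited 1 intensity per probe set and array, a MAS5 signal per the submitters' processing notes, whose version and settings no source used here gives. The trimmed mean (2% off each end) was 1500 on all 6 arrays, so each array was scaled alone, and the designs were analysed separately. 0 columns were left unused. The number of arrays, 3 per design, limits the precision. Array median signals were 527 to 581 on MOE430A and 856 to 921 on MOE430B, and background limits 994 to 1441 and 2680 to 3540.

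Of 22690 MOE430A probe sets, 20393 named 1 gene, 691 several and 1606 none, and of 22575 MOE430B probe sets, 14674, 245 and 7656. Symbols were updated through RefSeq (GRCm38.p6), and listed genes known there under a newer symbol were matched through it. The intensity tables name no genome build, and coordinates are RefSeq's.

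The background list held 112 tissue-restricted genes, of which 98 were measured. A probe set entered the comparison of samples when its mean log2 signal over the 3 arrays exceeded the mean log2 limit, and a gene is given by its probe set of highest mean log2 signal. Signals were floored at 1 before log2. The difference is 1 sample minus the mean of the others, counted at 1.5-fold. The scripts were checked on simulated data.

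The members, the 15 other lists and the background list were chosen with earlier results of these data known. All members may be named. Of other lists, the first 2 measured genes and those with the largest difference past 1.5-fold in each direction in the sample described were named, and markers by count. Python 3.11.15, pandas 2.3.3, numpy 2.4.6 and matplotlib 3.10.9 were used. C-terminal residues of the proteins were not analysed here.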

Additional observations from a re-analysis of the deposited data

How the results depend on the processing

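The count of detected genes was 31 and became 17 when more than 50% of a gene's probe sets had to be detected, a rule without a background share here. In sample 5, the genes 1.5-fold or more higher numbered 13 to 17, and the median log2 difference was 0.43 to 0.57. These ranges cover quantile normalisation, median centring, pseudocounts of 16 and 64 and no filter. They also cover detection on 3 of 3 arrays, the median over probe sets and the omission of _s_at and _x_at probe sets. The settings kept 29 to 38 member genes, and the background of higher genes ran from 14.4% to 20.1%. The 2 genes lower in sample 5 became 1 with a pseudocount of 64. In sample 1, the 2 higher genes became 1 with the median over probe sets and without _s_at and _x_at probe sets. In sample 4, the 1 higher gene became 2 with no filter. Leaving out 1 of the other samples gave 1 to 6 genes higher and 5 to 16 lower in sample 1, 1 to 5 higher and 6 to 13 lower in sample 4, and 13 to 16 higher and 1 lower in sample 5. The sample 1 median then ran from -0.48 to 0.03. Without _s_at and _x_at probe sets, Derl1 turned to -0.72 in sample 1 and to 0.056 in sample 4, where the probe set left is the one that disagrees. Hspa5 in sample 1 ran from -1.60 without sample 4 to 0.34 without sample 5, which leaves sample 4 as the only comparison. The alternative without members matched through an older symbol was added after seeing the data. No paired analysis was possible because no groups are compared. The sample numbers pair the arrays of the designs, which carry the same RNA but mostly different probe sets. All these values rest on 3 samples of 1 group, and spread between cultures is unknown.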
